A study of Mus musculus with 1248 samples.

Results

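Neutrophils are drawn to a site by CXC chemokines that bind the receptor CXCR2, and they are made and released from the bone marrow under the growth factor G-CSF. The 6 genes described here encode 4 of these chemokines (Cxcl1, Cxcl2, Cxcl3 and Cxcl5) and 2 myeloid growth factors, G-CSF (Csf3) and GM-CSF (Csf2). They were taken by symbol from the 40756 genes of a single-cell count table of 4T1 and 4T1.2 mouse mammary carcinoma cells, and all 6 were present in it. In the 4T1 model, tumours are known for a strong rise in circulating neutrophils, and Csf3 is the growth factor classically tied to it.

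Single cells were sorted into 96-well plates for full-length RNA libraries by a modified Smart-seq2 method, so that 1 well is 1 library. Both lines had been labelled with mCherry and firefly luciferase, and were given to female BALB/c mice by injection into the heart. Cells that passed a gate for mCherry were sorted from hindlimb bones at day 4, day 10 and day 16 for 4T1 and at day 4 for 4T1.2. The other groups were 4T1 cells from a mammary fat pad tumour at day 22, cultured 4T1 cells and cultured 4T1.2 cells. The 4T1.2 line was derived from 4T1 and is known for its spread to bone.

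The labels name no animal, plate or culture, so each of the 7 groups counts as 1 sample. Differences between groups therefore have no replicate check and no p-value, and the intervals given cover counting error only. Levels are CPM, that is counts scaled to a common library total, of the counts summed over the wells of a group. A gene was called higher or lower where log2((CPM + 5) / (CPM + 5)) reached 1 in size, that is 2-fold, among genes with at least 5 CPM in either group. On this scale the change of low genes is understated.

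Of 1248 wells, 1218 passed filters on genes, counts and mitochondrial share. A well was taken as tumour where its Krt8 plus Krt18 CPM, keratins of epithelial cells, was above its summed CPM of the blood cell genes Ptprc, Coro1a, Laptm5 and Rac2, and as host where it was below. This gave 501 tumour wells and 717 host wells, although the labels call every well a tumour cell. In 4T1 bone, tumour and host wells numbered 137 and 359 at day 4, 54 and 41 at day 10, and 71 and 119 at day 16. The fat pad had 85 tumour wells and 10 host wells, and 4T1.2 bone had 47 and 188. The cultures had 54 (4T1) and 53 (4T1.2) tumour wells and 0 host wells. In 4T1.2 tumour wells of bone the epithelial genes Krt19 (0.0216 CPM), Epcam (0.252 CPM) and Sfn (0.216 CPM) were near 0, while Krt7 stood at 256 CPM. Krt19, Epcam and Sfn were also low in 4T1.2 culture (1.25, 1.00 and 1.25 CPM), against 245, 217 and 177 CPM in 4T1 culture. The median total per well lay between 2647148.5 counts at day 16 and 3054736 counts in 4T1.2 culture. Of the day 16 wells, 2 tumour wells (34104356 and 11568261 counts) and 1 host well (13183380 counts) were far deeper than the rest, and the deepest gave 14.7% of all counts in day 16 tumour wells.

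The reporters separated the classes in part. The luciferase reporter had a median of 64.0 CPM in tumour wells and 0.616 CPM in host wells of 4T1 bone at day 4. mCherry had a median of 405 CPM in these tumour wells and 1905 CPM in the host wells. In the 4 other tissue groups the mCherry median was higher in tumour wells, at 550 and 295 CPM in tumour and host wells of day 10, 682 and 184 CPM at day 16, 594 and 13.2 CPM in the fat pad, and 360 and 198 CPM in 4T1.2 bone. RNA of the other class was measurable on both sides. In host wells the listed tumour genes Krt7, Krt19, Epcam and Sfn stood at between 0.478% and 3.81% of their tumour-well level in 4T1 bone on day 4, between 0.589% and 3.63% on day 10, between 0.602% and 1.17% on day 16, and between 1.51% and 3.95% in the fat pad. In 4T1.2 bone Krt7, the 1 of the 4 above 1 CPM in its tumour wells, stood at 3.58%. In tumour wells the listed host genes S100a8, S100a9, Lyz2, Cd79a and Hbb-bs stood at between 1.54% and 9.63% of their host-well level in 4T1 bone on day 4, between 0.834% and 13.4% on day 16, and between 6.75% and 32.7% in 4T1.2 bone. At day 10 S100a8, S100a9 and Lyz2 stood at 4.55% to 6.79%, and Cd79a and Hbb-bs had under 8 CPM in host wells. In the fat pad Lyz2 stood at 0.215% and S100a8 at 5.09%, with 19.7 CPM of S100a8 in host wells, where the 3 other genes had under 1 CPM. A member at a similar percentage of its level in the other class cannot be told apart from such RNA.

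The 4 chemokine genes lie in 1 cluster on mouse chromosome 5, and the growth factor genes lie apart on chromosome 11 (GRCm38, GENCODE M21 gene bounds). Cxcl5 spans chr5:90759360-90761624, Cxcl3 chr5:90786103-90789600, Cxcl1 chr5:90891241-90893115 and Cxcl2 chr5:90903871-90905938, each on the plus strand. Csf2 spans chr11:54247271-54249667 on the minus strand and Csf3 chr11:98701263-98703629 on the plus strand. Cxcl2 and Cxcl3 are close relatives: they share 69 stretches of 100 bases, which are 3.05% of those in Cxcl2 transcripts and 1.88% of those in Cxcl3 transcripts. No stretch of this length in the other 4 genes occurred in another gene.

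These genes are textbook targets of NF-kB, a family of transcription factors that inflammatory signals activate. The 250 bases before the RefSeq start of the 3 chemokine genes Cxcl1, Cxcl2 and Cxcl3 (GRCm38.p6) are shown because they hold the same NF-kB consensus letters. Capitals mark 2 overlapping matches of 10 bases, 1 on each strand and offset by 1 base.
Cxcl1: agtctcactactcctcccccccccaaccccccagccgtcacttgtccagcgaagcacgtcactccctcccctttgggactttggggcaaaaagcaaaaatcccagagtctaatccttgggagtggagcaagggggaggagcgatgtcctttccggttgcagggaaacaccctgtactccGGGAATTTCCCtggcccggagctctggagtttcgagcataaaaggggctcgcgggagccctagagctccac
Cxcl2: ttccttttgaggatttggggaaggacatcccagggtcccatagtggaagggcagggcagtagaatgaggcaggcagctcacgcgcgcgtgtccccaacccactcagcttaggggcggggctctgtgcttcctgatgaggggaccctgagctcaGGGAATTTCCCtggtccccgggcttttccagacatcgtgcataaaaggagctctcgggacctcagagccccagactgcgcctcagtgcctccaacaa
Cxcl3: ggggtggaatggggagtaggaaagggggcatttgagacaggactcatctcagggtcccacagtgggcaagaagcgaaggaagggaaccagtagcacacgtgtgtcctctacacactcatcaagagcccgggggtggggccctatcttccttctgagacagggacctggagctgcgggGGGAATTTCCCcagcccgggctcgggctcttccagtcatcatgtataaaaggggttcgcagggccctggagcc
The windows are chr5:90890995-90891244 for Cxcl1, chr5:90903649-90903898 for Cxcl2 and chr5:90785851-90786100 for Cxcl3, all on the plus strand. The matches together lie 71 to 61 bases before the start in Cxcl1, 97 to 87 bases before it in Cxcl2 and 73 to 63 bases before it in Cxcl3. Among 32841 promoters of the same length, 3.90% hold an NF-kB consensus match on either strand. The Cxcl3 window also holds TATAAA (12.4% of promoters) 30 to 25 bases before the start. The C/EBP motif TTGCNNAA, found in 9.57% of promoters, and the AP-1 motif TGANTCA, found in 6.75%, were not among the letters of these 3 windows. A match is a run of letters and was not measured as binding. The RefSeq start of Csf2 lies upstream of the gene bounds given above, so its window does not reach them and is not shown. That Csf2 window was also searched: it holds a C/EBP motif match and no NF-kB consensus match. Promoters of Cxcl5 and Csf3 are named only.

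Cxcl1 (KC), a main neutrophil attractant of the mouse, was the member with the highest tumour-cell level per length in the fat pad. In fat pad tumour wells it reached 2123 CPM (95% interval 2117 to 2128), with a median of 810 CPM and a range of 21.9 to 13670 CPM over 85 wells. In 4T1 bone it stood at 307 CPM on day 4 (306 to 309), 72.5 CPM on day 10 (71.2 to 73.9) and 377 CPM on day 16 (374 to 379). Cultured 4T1 cells had 287 CPM (284 to 289). At day 16 the deepest well held 39.6% of the Cxcl1 counts, and in wells of at most 10000000 counts the level was 248 CPM. The fat pad thus stood above every other group, and day 4 in bone lay near culture.

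Medians over wells gave a different order from sums. The median tumour well of 4T1 bone held 172 CPM of Cxcl1 at day 4, 2.06 CPM at day 10 and 59.9 CPM at day 16, against 73.6 CPM in culture. The share of tumour wells with at least 100 CPM was 60.6% at day 4 (exact binomial 95% interval 51.9 to 68.8), 20.4% at day 10 (10.6 to 33.5) and 39.4% at day 16 (28.0 to 51.7), against 37.0% in culture (24.3 to 51.3). In the fat pad it was 83.5% (73.9 to 90.7). So most wells of bone at day 4 and of the fat pad were above 100 CPM, and most wells of the later days and of 4T1 culture were below it.

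The lowest fat pad wells did not come near 0. Of the 85 tumour wells, 9 lay between 21.9 and 36.8 CPM of Cxcl1 and the next at 78.9 CPM. Of the 10 host wells, 4 lay between 24.4 and 38.6 CPM. The mean over all 95 fat pad wells was 1931 CPM. Whether these low values are the cells' own RNA was not tested, and shares at 100 CPM are therefore the ones read for this gene.

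Cxcl5 (LIX), another CXCR2 ligand, was far lower in 4T1 bone and in the 4T1 fat pad than in culture. In bone it was 7.75 CPM at day 4 (7.50 to 8.01), 1.88 CPM at day 10 and 7.31 CPM at day 16, with a median of 0 CPM on each day. Cultured 4T1 cells had 302 CPM (300 to 305) and a median of 78.6 CPM. At least 10 CPM was found in 20 of 137 tumour wells at day 4 and in 50 of 54 wells of culture. Single wells carried much of the bone level: 1 well held 43.2% of the counts at day 4, 75.1% at day 10 and 57.3% at day 16, and without it the level was 4.44, 0.472 and 3.17 CPM on these days.

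Fat pad tumour wells lay between bone and culture for Cxcl5. They had 23.9 CPM (23.3 to 24.6) with a median of 0.570 CPM, and 22 of 85 wells had at least 10 CPM. Wells with Cxcl5 at that level were thus a minority in the fat pad and nearly all wells in culture. In the 4T1.2 line, bone at day 4 had 11.5 CPM (11.0 to 12.1), against 46.5 CPM in culture (45.5 to 47.5).

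**Figure D1:**
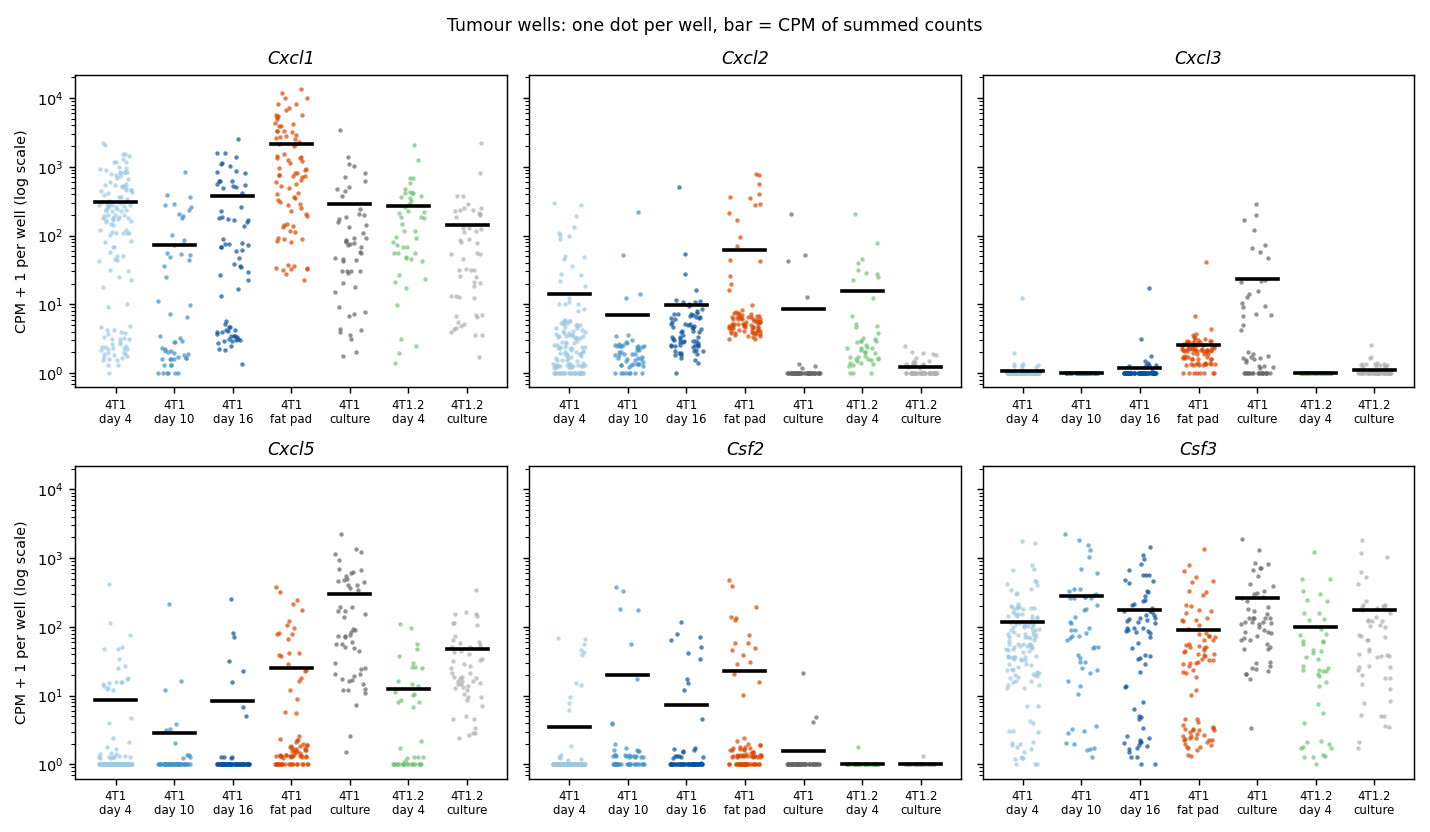
Level of each member in every tumour well (CPM + 1, log axis) by group, with 1 dot per well and a bar at the CPM of the summed counts. Cxcl1 reached 13670 CPM in the fat pad, Cxcl5 had a median of 0 CPM in 4T1 bone and 78.6 CPM in 4T1 culture, and Csf3 had wells above 1000 CPM in all 7 groups.

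Cxcl2 (MIP-2), a CXCR2 ligand that blood cells make readily, was low in tumour wells. In 4T1 bone it was 13.1 CPM at day 4, 5.96 CPM at day 10 and 8.90 CPM at day 16, against 7.52 CPM in culture. Single wells carried much of this: 1 well held 67.5% of the counts at day 10, 50.9% at day 16 and 67.2% in culture. In the fat pad it was 60.9 CPM (59.9 to 61.9), and 17 of 85 tumour wells had at least 10 CPM, the highest with 783 CPM. The median there was 4.56 CPM, so most fat pad tumour wells were far below the summed level.

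Cxcl3, a close relative of Cxcl2 with the same receptor, was above 5 CPM in tumour wells of 1 group, cultured 4T1 cells. It was 0.0665 CPM in 4T1 bone on day 4, 0 counts on day 10 (upper limit 0.0234 CPM), 0.185 CPM on day 16 and 1.56 CPM in the fat pad. Cultured 4T1 cells had 22.2 CPM (21.5 to 22.9), and 14 of 54 wells had at least 10 CPM, the highest with 290 CPM. In the 4T1.2 line bone had 0 counts (upper limit 0.0266 CPM) and culture 0.108 CPM.

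Csf3, which encodes G-CSF, the growth factor that drives the making and release of neutrophils, was spread over most tumour wells in every group. In 4T1 bone it was 118 CPM at day 4 (117 to 119), 280 CPM at day 10 (278 to 283) and 176 CPM at day 16 (175 to 178). The fat pad had 88.2 CPM (87.0 to 89.4) and 4T1 culture 261 CPM (259 to 264). The order by summed level was day 10, culture, day 16, day 4 and fat pad.

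By the median well, culture stood highest for Csf3. Medians were 54.4, 76.7 and 85.7 CPM in bone at day 4, day 10 and day 16 and 31.5 CPM in the fat pad, against 116 CPM in culture. Wells with at least 10 CPM made up 84.7% (77.5 to 90.3), 79.6% (66.5 to 89.4) and 70.4% (58.4 to 80.7) of tumour wells at day 4, day 10 and day 16, 62.4% (51.2 to 72.6) in the fat pad and 98.1% (90.1 to 99.95) in culture. At day 10 the highest well, with 2243 CPM, held 16.6% of the counts, and the level without it was 239 CPM.

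Csf2, which encodes GM-CSF, a growth factor for granulocytes and macrophages, came from few wells. It was 2.48, 18.9 and 6.26 CPM in 4T1 bone on day 4, day 10 and day 16, 21.5 CPM in the fat pad (20.9 to 22.1) and 0.555 CPM in culture. Wells with at least 10 CPM numbered 8 of 137, 6 of 54 and 10 of 71 on the 3 days, 16 of 85 in the fat pad and 1 of 54 in culture. The 4T1.2 line had 2 counts in bone and 1 count in culture over all its tumour wells. At day 10, 1 well with 333 CPM held 36.9% of the counts, and without it the level was 12.2 CPM.

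**Figure D2:**
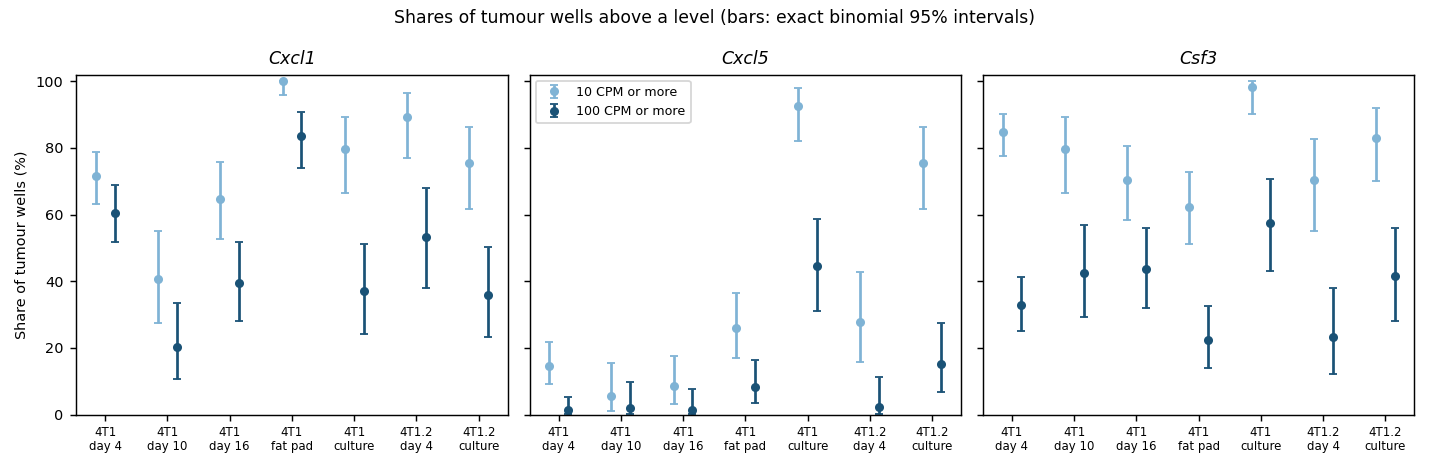
Share of tumour wells (%) with at least 10 CPM and at least 100 CPM of Cxcl1, Cxcl5 and Csf3 by group, with exact binomial 95% intervals as bars. Wells with at least 100 CPM of Cxcl1 made up 83.5% in the fat pad and 20.4% in 4T1 bone at day 10, and wells with at least 10 CPM of Cxcl5 made up 14.6% in 4T1 bone at day 4 and 92.6% in 4T1 culture.

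Per kilobase of exon, which allows genes to be compared, Cxcl1 led in the fat pad and in bone at day 4. In fat pad tumour wells the levels were 1132 CPM per kb for Cxcl1, 62.4 for Csf3, 29.5 for Cxcl2, 26.9 for Csf2, 12.8 for Cxcl5 and 0.446 for Cxcl3. In culture Csf3 (185 CPM per kb), Cxcl5 (162) and Cxcl1 (153) stood close together, with Cxcl3 at 6.34, Cxcl2 at 3.63 and Csf2 at 0.694. In bone the levels of Cxcl1 were 164, 38.7 and 201 CPM per kb at day 4, day 10 and day 16 and those of Csf3 were 83.7, 198 and 125. At day 16 the order rests on the deep wells: in wells of at most 10000000 counts Csf3 had 145 CPM per kb and Cxcl1 132.

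The first comparison asked how 4T1 cells newly in bone differ from cultured 4T1 cells. The labels do not say whether these were the culture that was injected. In 4T1 bone at day 4, 3 of the 6 members were lower than in culture and 0 were higher. Of all 10234 genes tested, 3.6% were lower and 5.18% higher. Cxcl5 fell by 4.59 on the log2 scale, Cxcl3 fell by 2.42 and Csf3 fell by 1.11. Cxcl1 (0.10) and Cxcl2 (0.53) did not pass, and Csf2 had under 5 CPM on both sides. The Csf3 call lay near the threshold: with TMM scaling its log2 ratio was -0.98. Without the well with most counts on each side Cxcl2 had 10.5 CPM in bone and 2.53 CPM in culture, and then passed as higher (1.04).

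The fat pad tumour was set against the same cultured cells and moved in both directions. Cxcl1 (2.87), Cxcl2 (2.40) and Csf2 (2.25) were higher than in culture, and Cxcl5 (-3.41), Cxcl3 (-2.05) and Csf3 (-1.51) were lower. That is 3 of 6 members in each direction, where 10.7% of 10503 genes were higher and 13.3% lower. The median of all genes in this comparison was -0.14. Because bone at day 4 and the fat pad share the culture wells, the likeness of their Cxcl5, Cxcl3 and Csf3 values is not independent evidence.

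Within 4T1 bone the members differed between days. At day 10, Csf2 (1.67) and Csf3 (1.21) were higher than at day 4 and Cxcl1 (-2.01) was lower. These are 2 of 6 and 1 of 6 members, where 4.64% of 10331 genes were higher and 2.73% lower, with a median of all genes of -0.12. At day 16 no member passed against day 4, where 10.2% of 10523 genes were higher and 9.28% lower. Without the well with most counts on each side Cxcl2 also passed as lower at day 10 (-1.15). In wells of at most 10000000 counts the day 16 ratio of Cxcl1 was -0.30, against 0.29 over all wells, and did not pass either way.

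Bone at day 16 was also set against the fat pad tumour of day 22. The bone cells came from injection into the heart and not from this tumour. Site and day cannot be told apart here. Cxcl1 (-2.48), Cxcl2 (-2.25), Csf2 (-1.23) and Cxcl5 (-1.23) were lower in bone at day 16, while Csf3 (0.96) lay just under the threshold on the higher side. Among 10590 genes 4.23% were lower and 7.48% higher. So 4 of 6 members were lower and 0 were higher. In wells of at most 10000000 counts Csf3 passed as higher (1.17) and the same 4 members were lower, and without the well with most counts on each side Csf3 also passed (1.04).

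The 4T1.2 line gave fewer differences. In 4T1.2 bone at day 4, Cxcl2 (1.89) was higher than in 4T1.2 culture and Cxcl5 (-1.64) was lower, 1 member each way, where 6.17% of 10319 genes were higher and 3.15% lower. Cxcl1 had 265 CPM in bone and 142 CPM in culture (0.88), and Csf3 had 97.7 CPM in bone and 174 CPM in culture (-0.80). The Cxcl2 value moved with the marker sums: in the 22 of 47 tumour wells whose sums were at least 10-fold apart it was 2.61 CPM, against 14.4 CPM over all 47, and its log2 ratio was 0.54. Without the well with most counts on each side Cxcl2 in bone was 9.56 CPM and Cxcl1 passed as higher (1.09).

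Between the lines in culture, 4T1.2 had less of 3 members. Cxcl5 had 46.5 CPM in 4T1.2 and 302 CPM in 4T1 (-2.58), Cxcl3 had 0.108 and 22.2 CPM (-2.41), and Cxcl2 had 0.244 and 7.52 CPM (-1.25). Cxcl1 (-0.99) and Csf3 (-0.58) did not pass. Among 10126 genes 4.98% were lower and 3.62% higher. The Cxcl2 call rests on 1 cultured 4T1 well: without the well with most counts on each side 4T1.2 had 0.205 CPM and 4T1 had 2.53 CPM, and the ratio was -0.53. In bone at day 4, 0 of 6 members passed between 4T1.2 and 4T1 tumour wells, where 4.19% of 10424 genes were higher and 5.07% lower.

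The next question was which cells in each tissue carried each member. Cxcl1 and Csf3 were higher in tumour wells than in host wells in all 5 tissue groups, and Cxcl2 was lower in all 5. For Csf3 the tumour and host levels were 118 and 3.64 CPM in 4T1 bone on day 4, 280 and 1.94 CPM on day 10, and 176 and 4.76 CPM on day 16. They were 88.2 and 2.09 CPM in the fat pad, and 97.7 and 5.78 CPM in 4T1.2 bone. Tumour wells held 93.5%, 99.5% and 96.5% of the Csf3 counts at day 4, day 10 and day 16, 99.8% in the fat pad and 82.8% in 4T1.2 bone, while they were 27.6%, 56.8%, 37.4%, 89.5% and 20.0% of the wells.

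Host wells with Csf3 were rare. At day 4, 8 of 359 host wells had at least 10 CPM, and 1 of these, with 629 CPM, held 64.2% of the host counts. At day 16, 1 of 119 host wells had at least 10 CPM and held 76.4%, and it was the deep host well of 13183380 counts. Without these wells the host level was 1.31 CPM at day 4 and 1.18 CPM at day 16. Over each host group Csf3 was 3.07%, 0.691% and 2.70% of the tumour level at day 4, day 10 and day 16, and 2.37% in the fat pad. At day 4, at day 10 and in the fat pad this lay within the range of the 4 listed tumour genes, and at day 16 it lay above their highest, 1.17%, with 76.4% of the counts in that 1 well. In 4T1.2 bone it was 5.92% of the tumour level, where Krt7 stood at 3.58%. There 1 host well held 54.9% of the counts, and without it the level was 2.63 CPM, and in host wells with marker sums at least 10-fold apart it was 0.578 CPM, against 5.78 CPM over all host wells.

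Cxcl1 was less restricted to tumour wells than Csf3. Its tumour and host levels were 307 and 25.9 CPM on day 4, 72.5 and 22.8 CPM on day 10, 377 and 87.4 CPM on day 16, 2123 and 161 CPM in the fat pad, and 265 and 18.3 CPM in 4T1.2 bone. Over all host wells these levels are 8.42%, 31.4%, 23.2%, 7.60% and 6.90% of the tumour levels. They lie above the highest listed tumour gene of each 4T1 group and above Krt7 in 4T1.2 bone. Few host wells carried them: 7 of 359 had at least 100 CPM at day 4, 3 of 41 at day 10 and 9 of 119 at day 16. One host well held 35.1% of the counts at day 4, 49.6% at day 10, 44.7% at day 16 and 57.0% in the fat pad. Without it the host level was 16.8, 11.9 and 48.8 CPM in bone on the 3 days and 79.5 CPM in the fat pad. In the fat pad the place above Krt19 (3.95%) rests on that well. In 4T1.2 bone 1 host well held 29.1% of the counts, with 34.4 CPM of keratins and 47.6 CPM of blood cell genes.

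Cxcl2 showed the opposite split. Its tumour and host levels were 13.1 and 161 CPM on day 4, 5.96 and 203 CPM on day 10, 8.90 and 504 CPM on day 16, 60.9 and 1943 CPM in the fat pad, and 14.4 and 99.3 CPM in 4T1.2 bone. Tumour wells were thus at 8.10%, 2.94% and 1.76% of the host level on the 3 days, 3.13% in the fat pad and 14.5% in 4T1.2 bone. One of the 10 fat pad host wells, with 10993 CPM, held 57.2% of their Cxcl2 counts, and without it the host level was 924 CPM. In none of the 5 groups was the Cxcl2 percentage above that of every listed host gene with at least 10 CPM in host wells: the highest were Hbb-bs at 9.63% (day 4), 13.4% (day 16) and 32.7% (4T1.2 bone), Lyz2 at 6.79% (day 10) and S100a8 at 5.09% (fat pad). At day 4 Cxcl2 lay below Hbb-bs but above S100a8 (3.01%), S100a9 (2.88%), Lyz2 (1.99%) and Cd79a (1.54%). In 4T1.2 bone it likewise lay below Hbb-bs but above S100a8 (9.07%), S100a9 (9.40%), Lyz2 (6.75%) and Cd79a (10.4%). In the fat pad Cxcl2 lay below S100a8, which had only 19.7 CPM in host wells. It lay above Lyz2 (0.215%), which had 4103 CPM in those host wells. The part of host RNA in these Cxcl2 values was not tested.

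Cxcl3 followed Cxcl2 in the fat pad. It had 1.56 CPM in tumour wells and 614 CPM in the 10 host wells (604 to 624), or 400 CPM without the well with most counts, and of these wells 7 had at least 100 CPM and 3 had under 4 CPM. In the host wells of bone it was 1.72, 1.02 and 5.87 CPM at day 4, day 10 and day 16, with 73.2% of the day 4 counts in 1 well and 47.7% of those of day 16 in another. Csf2 in host wells was 0.0137, 0.206 and 4.82 CPM on these days, and 1 well with 461 CPM held 98.5% of the day 16 counts. Cxcl5 stayed between 0.0362 and 1.79 CPM in host wells of all 5 tissue groups.

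Called over host wells, the members counted as follows. In 4T1 bone at day 4, tumour wells were higher for 3 members (Csf3 3.84, Cxcl1 3.34, Cxcl5 1.34), where 17% of 11300 genes were higher, and lower for Cxcl2 (-3.20), where 19.6% were lower. The Cxcl5 call was lost without the well with most counts (0.91). At day 10 they were higher for Csf3 (5.36), Csf2 (2.20) and Cxcl1 (1.48) and lower for Cxcl2 (-4.25), where 24.6% of 11048 genes were higher and 18.5% lower. At day 16 they were higher for Csf3 (4.22), Cxcl1 (2.05) and Cxcl5 (1.27) and lower for Cxcl2 (-5.20) and Cxcl3 (-1.07), where 23.9% of 11311 genes were higher and 17.9% lower. Without the well with most counts on each side the day 16 calls of Cxcl5 (0.69) and Cxcl3 (-0.69) were lost.

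The fat pad had the most members split by class. Tumour wells were higher for Csf3 (3.72), Cxcl1 (3.68), Cxcl5 (2.41) and Csf2 (2.29) and lower for Cxcl3 (-6.56) and Cxcl2 (-4.89), where 36.3% of 11045 genes were higher and 17.2% lower. In 4T1.2 bone they were higher for Cxcl1 (3.54), Csf3 (3.25) and Cxcl5 (1.38) and lower for Cxcl2 (-2.43), where 16.1% of 11402 genes were higher and 20.5% lower. The median of all genes was 0.26 at day 10, 0.22 at day 16 and 0.45 in the fat pad, which lies in the direction of the higher members.

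**Figure D3:**
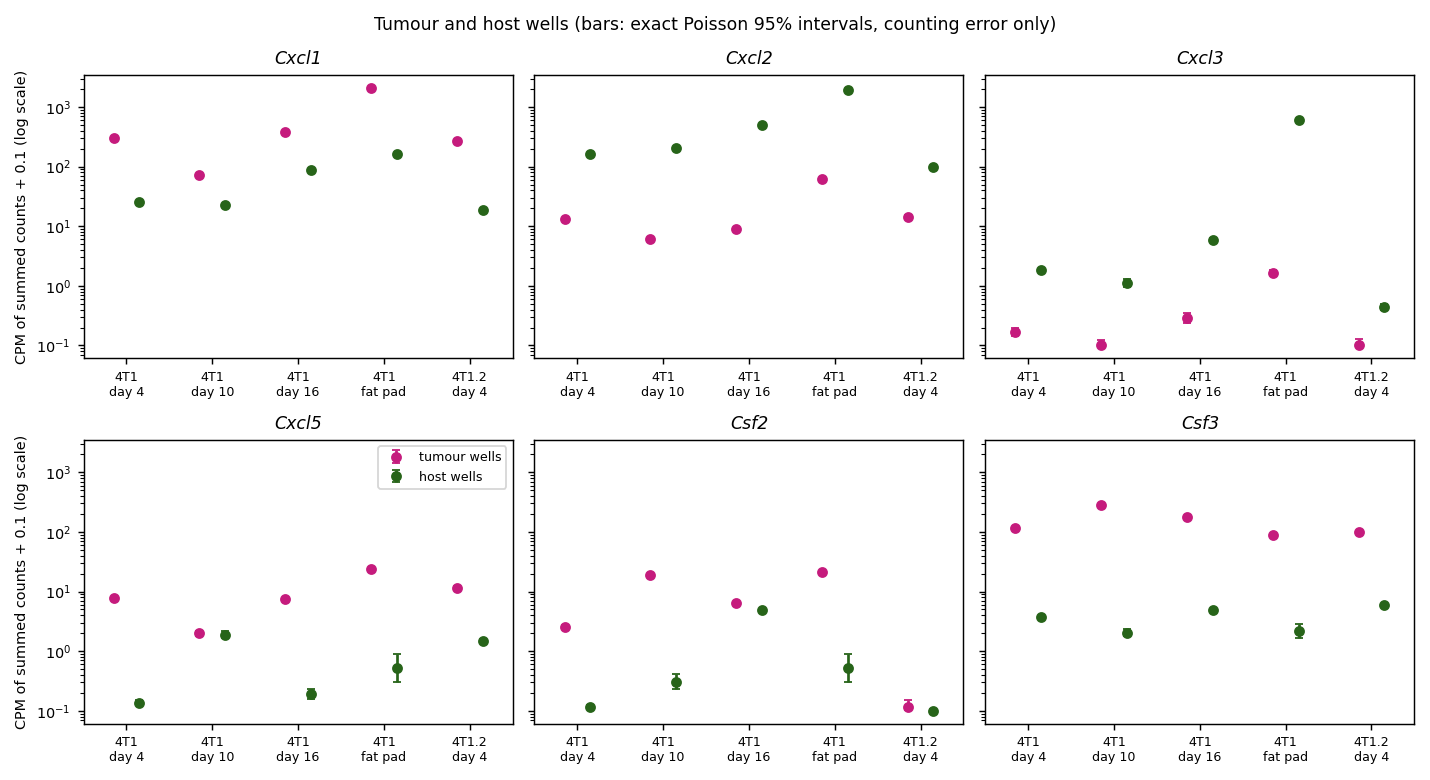
Level of each member in tumour and host wells of the 5 tissue groups (CPM of summed counts + 0.1, log axis), with exact Poisson 95% intervals as bars. Csf3 and Cxcl1 were higher in tumour wells and Cxcl2 in host wells in all 5 groups, and Cxcl3 had 1.56 CPM in tumour wells and 614 CPM in host wells of the fat pad.

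Host wells were also compared between days. In 4T1 bone at day 16, Cxcl2 (504 CPM, against 161 CPM at day 4, log2 ratio 1.62) and Cxcl1 (87.4 CPM, against 25.9 CPM, log2 ratio 1.58) were higher than at day 4, 2 of 6 members, where 7.69% of 10790 genes were higher and 13.9% lower. Without the highest well of each group Cxcl1 had 48.8 CPM at day 16 and 16.8 CPM at day 4. The host wells of these days were different cells: by the clusters described next, cluster 11 (monocyte or macrophage-like) had 61 of 119 wells at day 16 and 13 of 359 at day 4, cluster 14 (neutrophil-like) had 37 and 0, and cluster 9 (B cell-like) had 0 and 68. Within cluster 11 Cxcl2 was 564 CPM at day 16 and 1524 CPM at day 4, and Cxcl1 was 156 and 430 CPM. The day 4 values rest on 13 wells, and 1 of these had 5161 CPM of Cxcl1. One well of day 16 in that cluster had 3794 CPM. No order of the days is therefore read for Cxcl1 within the cluster. Whether the change in cell types underlies the higher levels at day 16 was not tested. At day 10 against day 4, 0 of 6 members passed, where 7.18% of 10717 genes were higher and 16.4% lower. Between 4T1.2 and 4T1 bone at day 4, 0 of 6 passed in host wells, where 2% of 10788 genes were higher and 1.36% lower.

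To see which host cells carried Cxcl2, the 717 host wells were clustered without the members or their pathway genes, and 14 clusters were named from marker genes where these allowed it. The naming rule was set after the clusters were seen, and values by cluster are descriptions. The highest Cxcl2 level, 762 CPM, was in cluster 11, a monocyte or macrophage-like cluster of 102 wells led by Arg1, C1qb, C1qa and C1qc, which held all 10 fat pad host wells and 61 wells of day 16. Its median was 158 CPM, and 66 of its 102 wells had at least 10 CPM.

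Neutrophil-like clusters came next, with a more uneven spread. Cluster 1, led by Ifit1 and other interferon-induced genes, with 58 wells, 51 of them from 4T1 bone at day 4, had 641 CPM of Cxcl2 but a median of 5.62 CPM, and 28 wells had at least 10 CPM. Cluster 14, with 47 wells, mostly of day 16, had 512 CPM, a median of 7.49 CPM and 18 wells with at least 10 CPM. Cluster 8, led by genes of neutrophil precursors such as Camp, Ltf and Ngp, had only 4.44 CPM in 53 wells. So Cxcl2 was present in part of the wells of some neutrophil-like clusters and nearly absent from another.

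Other clusters held less Cxcl2. Cluster 4 passed 5 monocyte or macrophage markers, but 3 of these, Mpo, Elane and Ctsg, are also genes of early granulocyte precursors, and it had 128 CPM of Cxcl2, and cluster 13, monocyte or macrophage-like, had 125 CPM. The B cell-like cluster 9 had 3.94 CPM and the erythroid-like cluster 7 had 1.33 CPM. Of the Cxcl2 counts in host wells at day 4, cluster 1 held 53.3% with 14.2% of the wells and cluster 11 held 28.3% with 3.62% of the wells. In 4T1.2 bone, cluster 2, which has no name and is led by cartilage and basophil genes, held 41.2% with 34.0% of the wells.

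Cluster 10 stood apart for Csf3 and Cxcl1. These 18 wells, 14 of them from 4T1.2 bone, had no name and were led by Col1a1, Col1a2 and Cyr61. They had 226 CPM of Cxcl1 and 60.9 CPM of Csf3, with at least 10 CPM of Csf3 in 8 wells. They held 91.5% of the Csf3 counts and 85.8% of the Cxcl1 counts in host wells of 4T1.2 bone at day 4. The host well with the most Csf3 there, at 301 CPM, had 1406 CPM of keratins and 1581 CPM of blood cell genes, so the rule that split the classes placed it by a narrow margin.

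Single wells of cluster 11 carried other members at high levels. In 1 well of day 4 it was Cxcl1 at 5161 CPM and Cxcl3 at 717 CPM. In 1 well of day 16 it was Cxcl1 at 3794 CPM, Csf2 at 461 CPM and Cxcl3 at 272 CPM, with 64.2 CPM of keratins and 2958 CPM of blood cell genes.

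**Figure D4:**
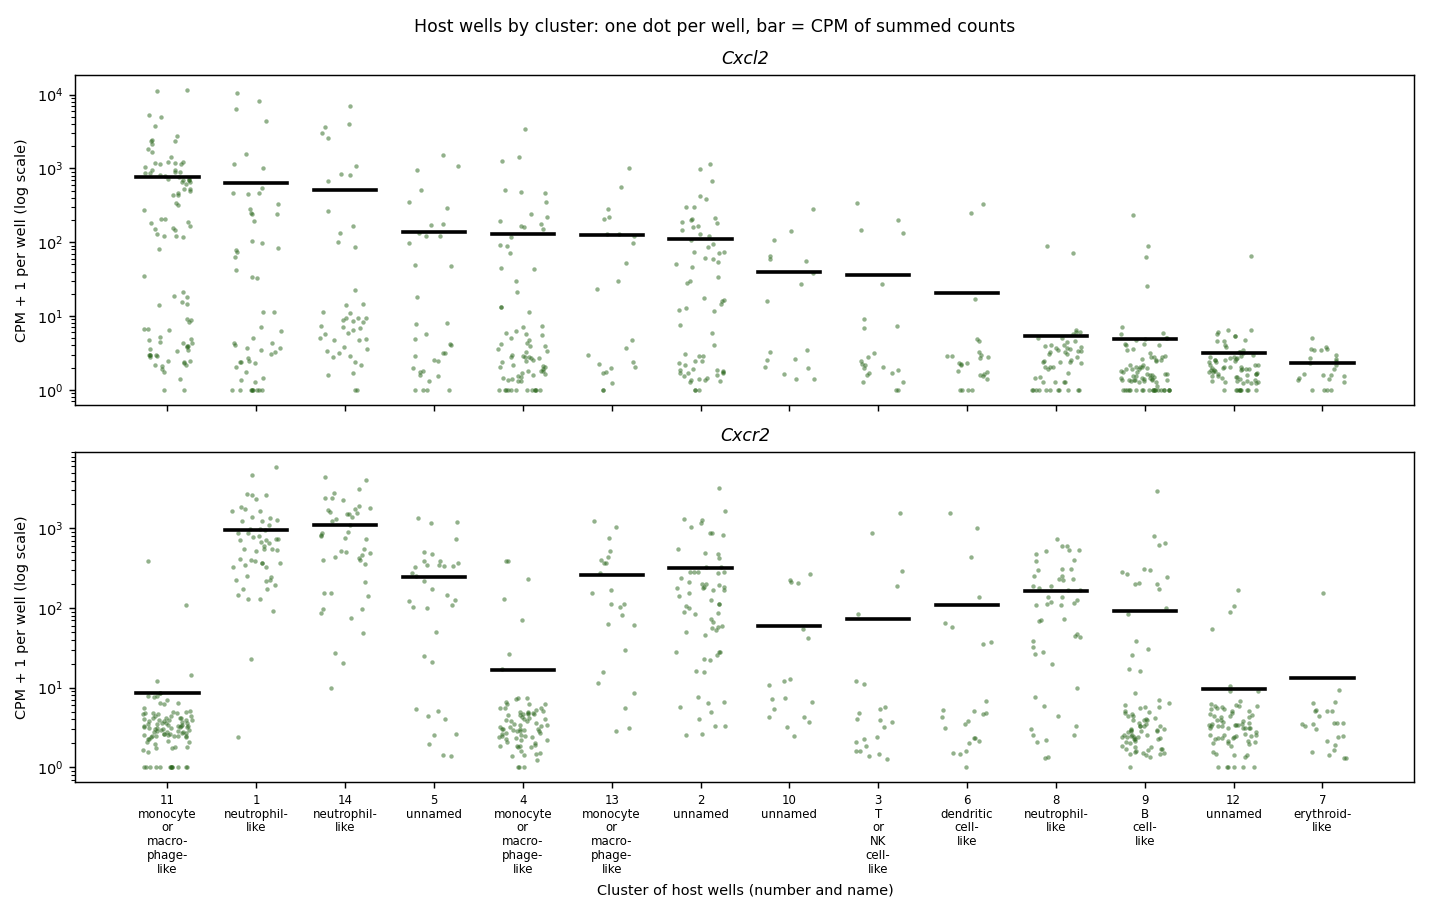
Cxcl2 (upper plot) and its receptor gene Cxcr2 (lower plot) in every host well (CPM + 1, log axis) by cluster, with 1 dot per well and a bar at the CPM of the summed counts. Cxcl2 was highest in cluster 11 at 762 CPM, and the neutrophil-like clusters 1 and 14 carried both Cxcl2 and Cxcr2.

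The receptors lay mostly on the host side. Of 7 receptor genes, 6 had enough counts to be tested in 4T1 bone at day 4. All 6 were lower in tumour wells, where 19.6% of 11300 genes were lower. Their median log2 ratio was -4.41, against 0.02 over all genes. The wells were split on blood cell genes, so a low level of other blood cell genes in tumour wells was largely set by the split. These values are descriptions. Cxcr2, the receptor of the 4 chemokines, had 4.11 CPM in tumour wells and 201 CPM in host wells at day 4. Csf3r, the G-CSF receptor, had 7.85 CPM in tumour wells and 252 CPM in host wells. Csf2ra, the alpha chain of the GM-CSF receptor, had 4.08 CPM in tumour wells and 222 CPM in host wells. The split was weaker in 4T1.2 bone, where Cxcr2 had 21.0 CPM in tumour wells and 181 CPM in host wells. In 4T1.2 bone the listed receptor gene Ackr1, with 2.98 and 6.79 CPM, did not pass. The listed host genes stood at between 6.75% and 32.7% of their host-well level in these tumour wells. The part of host RNA in the Cxcr2 value was not tested. In host wells Cxcr2 was highest in the neutrophil-like clusters 14 (1098 CPM) and 1 (950 CPM), and lower in cluster 8 (162 CPM). In the fat pad, Cxcr2 had 0.00413 CPM in tumour wells and 0 counts in the 10 host wells, which allows up to 0.128 CPM at 3 counts over the group.

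Wells with at least 10 CPM of at least 1 member made up 94.2%, 88.9% and 87.3% of tumour wells in 4T1 bone at day 4, day 10 and day 16 and 100% in culture. In host wells of 4T1 bone the share was 18.4% at day 4, 48.8% at day 10 and 47.1% at day 16. At 100 CPM the shares were 72.3%, 51.9% and 63.4% of tumour wells in bone on these days and 77.8% in culture. In host wells they were 10.9%, 36.6% and 37.0%. The pairs given next were counted at 10 CPM only. Of 98 tumour wells at day 4 with at least 10 CPM of Cxcl1, 85 also had Csf3 at that level, which 116 of all 137 wells had. At day 10 it was 17 of 22 wells with Cxcl1 and 43 of all 54, and at day 16 it was 34 of 46 and 50 of all 71. Cxcl1 was at that level in 8 of 8, 3 of 6 and 9 of 10 wells with Csf2 on the 3 days. Wells with at least 10 CPM of 2 or more members made up 69.3%, 42.6% and 53.5% of tumour wells in bone on these days, against 98.1% in culture. At 100 CPM they made up 26.3%, 18.5% and 22.5%, against 40.7% in culture.

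Rank correlations between members were computed for 15 pairs in each group, and the pairs of Cxcl1 with Cxcl5 and with Csf3 are given because they were the highest in 4T1 culture, a choice made after the values were seen. Spearman's rho for Cxcl1 and Cxcl5 was 0.17, 0.26 and -0.07 across the tumour wells of 4T1 bone at day 4, day 10 and day 16 and 0.03 in the fat pad, against 0.54 across the 54 wells of 4T1 culture. For Cxcl1 and Csf3 it was 0.14, 0.00 and 0.25 in bone on these days and 0.09 in the fat pad, against 0.54 in culture. The 4T1.2 line had the same order for Cxcl5, with 0.22 in bone and 0.57 in culture, but not for Csf3, with 0.24 in bone and 0.15 in culture. Wells of a group share their library preparation, and most tissue wells had no or few Cxcl5 counts, so these are descriptions with no test of a difference.

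**Figure D5:**
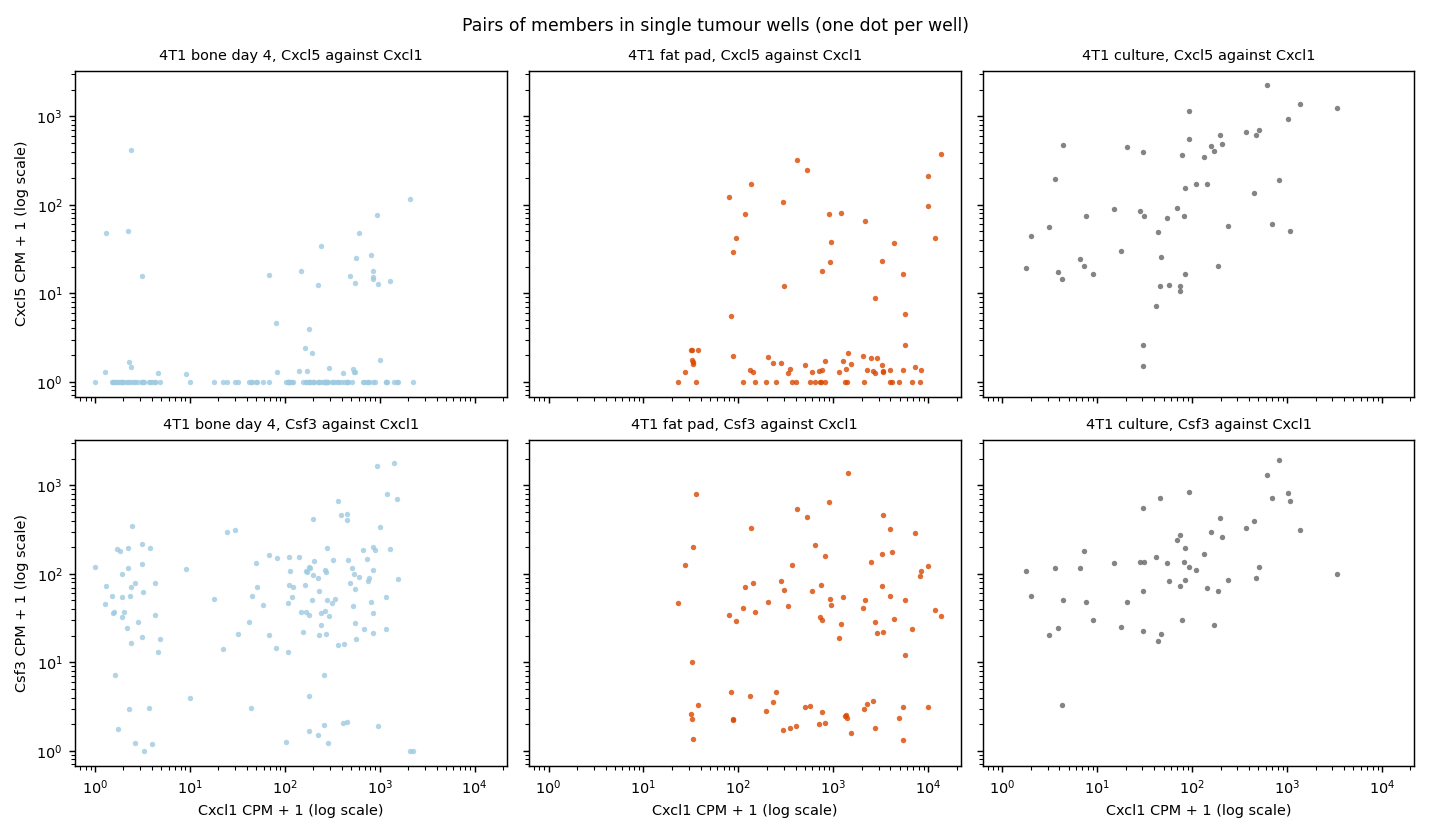
Cxcl5 (upper row) and Csf3 (lower row) plotted against Cxcl1 in each tumour well (CPM + 1, log axes) for 4T1 bone at day 4, the 4T1 fat pad and 4T1 culture, with 1 dot per well. The dots of the fat pad show little shared slope (rho 0.03 and 0.09), and those of culture climb together (0.54 for both pairs).

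Among 9908 genes compared within tumour wells over 6 groups, the 3 whose levels went most closely with Cxcl1 were Nfkbia (mean rho 0.45), Tnfaip3 (0.34) and Nfkbiz (0.31), where the median gene had 0.03. All 3 are NF-kB target genes, the first 2 of them inhibitors of NF-kB signalling. For Csf3 the closest were Sdc4 (0.29, by group 0.09 to 0.53), a cell surface proteoglycan, Plaur (0.27, 0.17 to 0.44), the urokinase receptor, and Ltbp2 (0.24, 0.12 to 0.43). For Cxcl5, over 5 groups, the closest gene was Cxcl1 (0.32, by group 0.03 to 0.57), followed by Tmem120b (0.23) and Fut11 (0.22). The values with Cxcl1 were highest in the cultures (0.54 and 0.57). Bone at day 16 (-0.07) and 4T1.2 bone (0.22) were not among these 5 groups.

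The other members gave weaker or class-bound likeness. For Cxcl2 the closest genes were Alox5ap (0.38), Coro1a (0.37) and Ncf4 (0.35), which are genes of blood cells, and Coro1a is also 1 of the genes that split the wells. Cxcl3 was closest to Ttc26 (0.31) and Csf2 to Blzf1 (0.23), each over only 3 groups. Pearson r on log2(CPM + 5) was also taken across the 11 profiles of group and class with at least 20 wells. The fat pad host wells, where Cxcl2 and Cxcl3 were highest, were not among these. The highest r was 0.99 with Gprc5a for Csf3, 0.98 with Arrdc4 for Cxcl2 and 0.97 with Tut1 for Cxcl5. It was 0.96 with Gm10736 for Cxcl1, 0.94 with Casp12 for Csf2 and 0.92 with Serpinb2 for Cxcl3. Each is the highest of 9777 genes over only 11 profiles, a choice that favours high values, so these are descriptions.

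Genes that switch these members on and off were read from lists. Of 13 NF-kB and C/EBP factors and feedback genes, 5 were higher and 0 lower in tumour wells of 4T1 bone at day 4 against culture (5.18% and 3.6% of all genes), with a median log2 ratio of 0.12, against -0.06 over all genes. Nfkbia, which encodes the inhibitor IkB-alpha, had 660 CPM in bone and 149 CPM in culture (2.11). Nfkbiz had 153 CPM in bone and 45.0 CPM in culture (1.66), and Nfkb1 had 84.0 CPM in bone and 24.9 CPM in culture (1.57). Host wells of the same day had 849, 133 and 120 CPM of these genes, and S100a8 in the tumour wells was 749 CPM, which is 3.01% of its host level. The part of host RNA in these values was not tested. In the fat pad 3 of 13 were higher than in culture (Nfkbiz 3.44, Nfkbia 2.74, Tnfaip3 1.68) and 1 was lower (Nfkb2 -1.59), where 10.7% of all genes were higher and 13.3% lower.

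In 4T1.2 bone at day 4, 8 of the 13 were higher than in 4T1.2 culture and 0 were lower, where 6.17% of all genes were higher and 3.15% lower. In the same comparison all 5 listed host genes were higher, among them S100a8 (3.68) and Hbb-bs (6.95), and their part in the count was not tested. In 4T1 bone at day 10 against day 4, 0 of 13 passed. At day 16 against day 4, 4 of 13 were higher, where 10.2% of all genes were, among them Nfkbiz at 888 CPM, against 153 CPM at day 4 (2.50). Of 6 genes for the decay or stability of such mRNAs, Zfp36 was the 1 that passed in 4T1 bone at day 4 against culture. In that comparison 5.18% of all genes were higher and 3.6% lower. Zfp36 had 440 CPM in bone and 28.8 CPM in culture (3.72), beside 466 CPM in host wells of the same day. Its product, tristetraprolin, promotes decay of cytokine mRNAs. In the fat pad Zfp36 had 625 CPM and passed as higher together with Zfp36l1, where 10.7% of all genes were higher and 13.3% lower.

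The cytokines that induce these members moved unevenly. Of 8 listed genes 7 were analysed here. Il1a had 4.38 CPM in tumour wells of 4T1 bone at day 4 and 180 CPM in culture (-4.30), while fat pad tumour wells had 222 CPM. Tnf had 42.7 CPM in fat pad tumour wells and 5.63 CPM in culture (2.17). In host wells of day 16 against day 4, whose cell types differed as given above, all 4 that could be tested were higher, where 7.69% of all genes were: Il1a had 157 and 5.52 CPM, Il1b 892 and 308 CPM, Tnf 242 and 48.4 CPM, and Il6 14.2 and 3.83 CPM. Il1r1, the receptor through which IL-1 acts, had 22.0 CPM in tumour wells of bone at day 4 and 3.88 CPM in culture and passed as higher. It had 46.1 CPM in the fat pad, and 102 CPM at day 16, against 22.0 CPM at day 4 (1.98).

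The other listed CXC ligands and myeloid growth factors moved in both directions. Of 14 other CXC ligands and growth factors listed, 13 were analysed here, and at day 4 against culture 3 of the 7 tested were higher and 1 was lower, where 5.18% of all genes were higher and 3.6% lower. Cxcl10, a ligand of the T cell receptor CXCR3, had 262 CPM in bone and 89.9 CPM in culture (1.49), and 19.3 CPM at day 16, against 262 CPM at day 4 (-3.46). Cxcl9, another CXCR3 ligand, had 25.1 CPM in bone at day 4 and 4.22 CPM in culture (1.71). Cxcl16, which binds CXCR6, had 46.0 CPM in bone at day 4 and 211 CPM in culture (-2.08).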

How the data were processed

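Read counts per gene in single sorted wells were analysed. The authors deposited raw read counts, 1 column per well, made from full-length libraries of oligo-dT primed RNA read as paired 150-base reads, per the labels. Wells whose mCherry qPCR threshold cycle was above 30 were discarded by the authors, per the labels. The submitters' processing notes name featureCounts 1.6.2, STAR 2.6.0c, Trim Galore 0.6.6, Seurat 3.1.2, SAMtools 1.7, FastQC 0.11.7, R 3.6.2 and build mm10, without roles. The annotation used for counting and any strand setting are not given in the sources used here. The libraries held no molecular identifiers, so PCR copies were counted as reads and intervals cover counting error only.

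From the deposited counts, 78 ERCC spike-in entries (0.670% of counts), 2 reporters (0.187%) and 4 repeated date-like symbols (0.0149%) were left out of totals. Wells were kept with at least 1000 genes, at least 50000 counts and at most 25% mitochondrial counts, and 30 failed. Counts were summed per group and class, scaled to CPM and compared as log2 ratios with a pseudocount of 5 CPM. No test was run because each group is 1 sample. The 16 comparisons were repeated under 10 alternatives, which include TMM factors (edgeR 4.0.16) and DESeq2 1.42.0 size factors, and under 1 more chosen after seeing the data, wells of at most 10000000 counts. Host wells were clustered with scanpy 1.11.5 (2000 variable genes, 20 components, 15 neighbours, Leiden resolution 1). A cluster was named after the class with the most markers passed, at least 3, if that class also led its top 10 genes. Python 3.11.15, numpy 2.4.6, pandas 2.3.3, scipy 1.17.1 and R 4.3.3 were used. The summing and calling steps were tested on simulated data. The members and the gene lists were chosen with earlier results of these data known. The text names the 6 members, for each the 3 genes most like it by rank or by profile, or the first of these, and listed genes that passed.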

Additional observations from a re-analysis of the deposited data

How the results depend on the processing

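Each count of members past 2-fold, higher or lower, was recomputed for the 16 comparisons under 10 alternatives and 1 more chosen after seeing the data, which gave 334 values within 1.5 times the main count and 18 outside it. TMM factors, DESeq2 size factors, no minimum CPM, no filter on wells and at least 500000 counts per well moved no such count by more than that. With a pseudocount of 1 CPM, 3 members were lower at day 10 against day 4 and 1 was higher at day 16 against day 4 in tumour wells. With 20 CPM, 0 were higher in 4T1.2 bone against its culture, 1 was higher at day 10 against day 4, 2 were lower at day 16 against the fat pad, and 1 was lower in tumour against host wells at day 16. With wells weighted equally, 1 was lower in tumour against host wells at day 16. With marker sums at least 10-fold apart, 0 were higher in 4T1.2 bone against its culture, 3 were lower at day 10 and 1 at day 16 against day 4 in tumour wells, and 1 was lower in 4T1.2 against 4T1 bone in tumour wells and 1 in host wells. Without the well with most counts of each gene, 1 was higher in 4T1 bone at day 4 and 2 in 4T1.2 bone against their cultures, 2 were lower at day 10 against day 4, 1 was higher at day 16 against the fat pad, and 1 was lower in tumour against host wells at day 16. In wells of at most 10000000 counts, the alternative chosen after seeing the data, 1 was higher at day 16 against the fat pad. In each case the cause was not tested. Ratios of single members moved beyond their counting interval in 485 of 1056 values, and 0 of those called reversed in sign. Of shares of wells with a count at other thinning depths, 64 moved by less than their interval and 80 by more. No paired analysis was possible because the numbers that groups share only number the cells and no test was run.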
